A study of Mus musculus with 16 samples.

Results

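Expression of NF-kB subunits and of NF-kB target genes, some of which feed back on NF-kB, was followed in mouse hepatic stellate cells. These vitamin A storing cells of the liver turn into matrix-producing myofibroblasts after injury. The 10 genes were Rela, Relb, Nfkb1, Nfkb2, Nfkbia, Tnfaip3, Tnip1, Sod2, Birc3 and Traf1. Probe sets annotated to exactly 1 of these symbols were collected, and of several for a gene, the brightest by its mean across all 16 arrays stood for it. This gave 9 genes of the 18193 on the array, since the annotation used here lists no probe set for Nfkb1, which was therefore not analysed here. Of these 9, 8 were among the 7823 genes tested, which are those with 2 or more arrays at log2 5 or above.

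The cells of all 16 arrays were isolated from male Balb/c mice, 8 to 10 weeks old, by density centrifugation and magnetic depletion of cells with F4/80, a macrophage surface protein. Cultured cells (3 arrays) stood on plastic for 5 days in medium with 10% fetal bovine serum. Cocultured cells (2 arrays) were treated alike, with Kupffer cells, the macrophages of the liver, on the far side of a transwell insert that prevents contact; of the 3 such samples that the design text mentions, 1 is not analysed here. The third group (3 arrays) came from mice whose bile duct had been ligated for 15 days, and the fourth (3 arrays) from mice injected intraperitoneally 4 times with the liver toxin carbon tetrachloride (CCl4), each dose being 0.5 µl per g. Quiescent cells (5 arrays) came from normal mice. Cells of the last 3 groups were plated for 24 h before lysis, so that the quiescent cells had also been on plastic. Whether the preparations of a group stem from separate mice is not stated in the labels, so the p-values rest on variation among these preparations alone, which may be technical.

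NF-kB is a family of dimeric transcription factors. In resting cells, dimers such as p65 (Rela) with p50 are held in the cytoplasm by IkB proteins. Receptors for TNF, interleukin-1 and bacterial products activate the IkB kinase complex, the inhibitor is degraded, and the dimer enters the nucleus. Several of its target genes then act back on it: Nfkbia makes new inhibitor, and Tnfaip3 (A20) and its partner Tnip1 (ABIN-1) edit the ubiquitin chains that carry the signal. The targets Birc3, Traf1 and Sod2 protect the cell from death or oxidative damage. A second branch, through Nfkb2 (p100, processed to p52) and Relb, responds to receptors such as CD40 and the lymphotoxin beta receptor. Subunit activity is set largely by protein location, which transcript levels do not measure. In stellate cells, NF-kB is known for survival of the activated cell and for its chemokine output.

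Expression is given on the log2 scale as deposited, for which the submitters' processing notes name GCRMA, a method that subtracts a sequence-based background and normalises arrays to one another. Array medians were 2.00 to 2.06, the level at which unexpressed probe sets collect. Most stellate markers were expressed in all 5 groups. Of 10, 9 had a mean of at least 5 in cultured, cocultured and quiescent cells and 8 after bile duct ligation and CCl4. Pdgfrb, the platelet-derived growth factor receptor beta, averaged 10.22 to 11.33, while Gfap, the tenth, averaged under 3 in every group. Their levels differed: of the 9 tested, coculture had 6 lower than quiescent cells and none higher (limma adjusted p under 0.05). Culture had 4 lower and 1 higher, bile duct ligation 3 lower and CCl4 4 lower. Against culture, coculture had 4 lower and none higher. Reln averaged 8.78 in cocultured cells, against 12.03 in quiescent and 11.24 in cultured cells. Colec11 averaged 6.06 ± 4.16 (SD) in cocultured cells, with 1 of the 2 arrays at 3.11. Of 15 macrophage markers, 9 taken here as lineage-defining (Adgre1, Clec4f, Csf1r, C1qa, C1qb, C1qc, Timd4, Vsig4 and Marco) had group means of at most 4.05. This subset was not part of the marker lists set in advance, and it leaves out Cd68, Lyz2, Cd14, Tyrobp, Aif1 and Fcgr1. Cd14 averaged 4.42 in cocultured and 4.49 in CCl4 cells, against 2.27 in quiescent cells. Tyrobp averaged 3.21 after bile duct ligation, against 1.46 in quiescent cells. Aif1 and Fcgr1 averaged under 3 in every group. The summed macrophage list ran at log2 6.46 to 6.64 in cultured cells, 8.34 to 8.41 in cocultured cells, 7.06 to 8.76 after bile duct ligation, 7.51 to 8.54 after CCl4 and 6.83 to 8.08 in quiescent cells, Cd68 and Lyz2 being its members with a mean of at least 5 in any group. Lyz2 was higher than in quiescent cells (2.02) in all 4 other states, at 4.94 in cultured cells, 5.49 in cocultured cells, 5.91 after bile duct ligation and 5.46 after CCl4 (limma adjusted p from 0.00054 to 0.00173). Hepatocyte transcripts differed too: albumin (Alb) lay at 7.34 to 9.0 after bile duct ligation and 7.94 to 10.79 after CCl4, against 1.84 to 3.75 in quiescent cells. The summed list of 7 measured hepatocyte genes lay at 7.65 to 9.17 and 8.59 to 11.36, against 4.27 to 5.29. After bile duct ligation Alb alone of the 7 had a mean of at least 5, and 3 had means under 3. After CCl4, 4 had a mean of at least 5 (Alb, Apoa1, Ttr and Fgb) and 2 had means under 3. Mesothelial markers differed in the same groups: the summed list of 6 ran at 7.0 to 7.62 after bile duct ligation and 7.45 to 10.24 after CCl4, against 4.15 to 4.48 in quiescent cells. Of these, Krt8, a keratin that other epithelia share, averaged 6.70 after bile duct ligation and 7.78 after CCl4, against 1.89 in quiescent cells. Lrrn4 averaged 4.11 after bile duct ligation and 6.13 after CCl4, against 1.41 in quiescent cells. Krt8 alone of the 6 had a mean of at least 5 after bile duct ligation, and Krt8 and Lrrn4 did after CCl4. Means under 3 were found for 3 of the 6 after bile duct ligation and 2 after CCl4. In bulk RNA, fewer cells of a type and less RNA per cell cannot be told apart.

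In the mouse reference (RefSeq, GRCm38.p6) all 10 genes are protein-coding. Rela lies at chr19:5637442-5648134, Relb at chr7:19606217-19629438, Nfkb1 at chr3:135584655-135691969 and Nfkb2 at chr19:46300994-46312400. Nfkbia lies at chr12:55489409-55492647, Tnfaip3 at chr10:19000910-19015410 and Tnip1 at chr11:54910787-54962956. Sod2 lies at chr17:13007839-13018119, Birc3 at chr9:7847468-7873205 and Traf1 at chr2:34941750-34961812.

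The promoters of the 4 target genes called in at least 1 comparison with quiescent cells are printed because NF-kB binds kappaB elements. The letters show where such stretches stand in them. Each window covers 300 bases, 250 before and 50 after a RefSeq start, 5′ to 3′ on the gene's strand. Capitals mark matches on either strand to GGGNNTTTC or to the degenerate kappaB consensus of 10 bases. The windows are chr12:55492598-55492897, minus strand, for Nfkbia; chr10:19015361-19015660, minus strand, for Tnfaip3; chr11:54962891-54963190, minus strand, for Tnip1; and chr17:13007589-13007888, plus strand, for Sod2.
Nfkbia: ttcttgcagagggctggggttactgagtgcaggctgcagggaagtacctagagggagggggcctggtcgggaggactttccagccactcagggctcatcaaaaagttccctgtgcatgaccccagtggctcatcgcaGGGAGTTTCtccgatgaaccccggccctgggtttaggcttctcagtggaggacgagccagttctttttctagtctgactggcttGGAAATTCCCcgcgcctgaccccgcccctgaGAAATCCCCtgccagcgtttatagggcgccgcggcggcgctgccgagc
Tnfaip3: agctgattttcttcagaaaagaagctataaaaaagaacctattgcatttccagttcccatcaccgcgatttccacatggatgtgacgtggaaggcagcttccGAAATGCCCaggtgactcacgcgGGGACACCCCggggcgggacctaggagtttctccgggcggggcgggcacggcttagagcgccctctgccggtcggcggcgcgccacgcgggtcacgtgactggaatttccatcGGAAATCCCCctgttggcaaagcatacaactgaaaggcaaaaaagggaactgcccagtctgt
Tnip1: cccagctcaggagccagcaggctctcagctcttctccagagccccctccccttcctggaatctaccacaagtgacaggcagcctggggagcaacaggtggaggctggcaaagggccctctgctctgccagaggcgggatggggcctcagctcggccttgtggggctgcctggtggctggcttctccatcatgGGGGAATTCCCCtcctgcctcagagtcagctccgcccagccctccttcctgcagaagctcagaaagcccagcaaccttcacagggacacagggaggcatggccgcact
Sod2: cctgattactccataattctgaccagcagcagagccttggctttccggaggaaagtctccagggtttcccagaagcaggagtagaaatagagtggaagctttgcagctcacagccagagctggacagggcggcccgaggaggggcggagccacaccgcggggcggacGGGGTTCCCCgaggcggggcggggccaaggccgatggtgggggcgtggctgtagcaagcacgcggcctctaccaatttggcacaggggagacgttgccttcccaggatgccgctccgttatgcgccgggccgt
In Nfkbia a consensus match begins 29 bases before the start and overlaps a match of GGGNNTTTC, which also begins at -113 and at 3. In Tnfaip3 consensus matches begin at -125 and -12, the second overlapping a match of GGGNNTTTC, and a further one of these begins at -148. In Tnip1 overlapping consensus matches begin at -58, -57 and -56, and in Sod2 a stretch that fits the consensus on both strands begins at -83. Of the 10 genes, 8 had at least 1 window in the RefSeq table (11 windows), with none for Nfkb1 and Relb. The consensus stood in windows of 5 of the 8 (Nfkbia, Nfkb2, Tnfaip3, Tnip1 and Sod2), against 4.51% of 32851 windows of all genes. GGGNNTTTC, whose matches partly overlap those of the consensus, stood in windows of 4 of the 8 (Nfkbia, Nfkb2, Rela and Tnfaip3), against 4.36% of windows. These set counts of genes beside shares of windows. Nfkb2 had 3 windows and Tnfaip3 had 2, so these genes had more chances of a match. The second Tnfaip3 window (chr10:19011914-19012213, minus strand), not printed here, holds no match of either kind. A match describes letters in this window only, as does the lack of one.

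Of the 4 states set against quiescent cells, coculture had the most NF-kB genes called, with 3 target genes higher and 3 subunits lower. In it, 6 of the 8 tested genes passed an adjusted p of 0.05 (limma, Benjamini-Hochberg over 7823 genes), where 38.7% of all tested genes did. The target genes Tnfaip3, Tnip1 and Sod2 were higher (3 genes, against 17.8% of all genes called higher). The targets Nfkbia (0.08) and Birc3 (0.48) were not called. The subunits Rela, Relb and Nfkb2 were lower (3 genes, against 20.9% called lower). Tnfaip3 passed the filter only through cocultured and CCl4 arrays, so the filter partly fixes its calls in comparisons with these groups. Of the other groups set against the same quiescent arrays, culture alone had 1 gene called, Tnip1, which was higher (42.1% of all genes called, 18.5% higher and 23.5% lower). Bile duct ligation had 1, Nfkbia, which was lower (16.9% of all genes called, 8.03% higher and 8.83% lower), and CCl4 had 1, Tnfaip3, which was higher (22% of all genes called, 9.51% higher and 12.5% lower). Each of these 3 counts, out of 8, lies below the share among all genes. Without coculture replicate 3 the coculture count was 3 rather than 6, and none of the 3 subunits was called (Rela -0.88, Relb -0.65 and Nfkb2 -0.97; limma adjusted p = 0.0735, 0.387 and 0.202). The 4 comparisons share the 5 quiescent arrays and are not independent of one another.

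**Figure D1:**
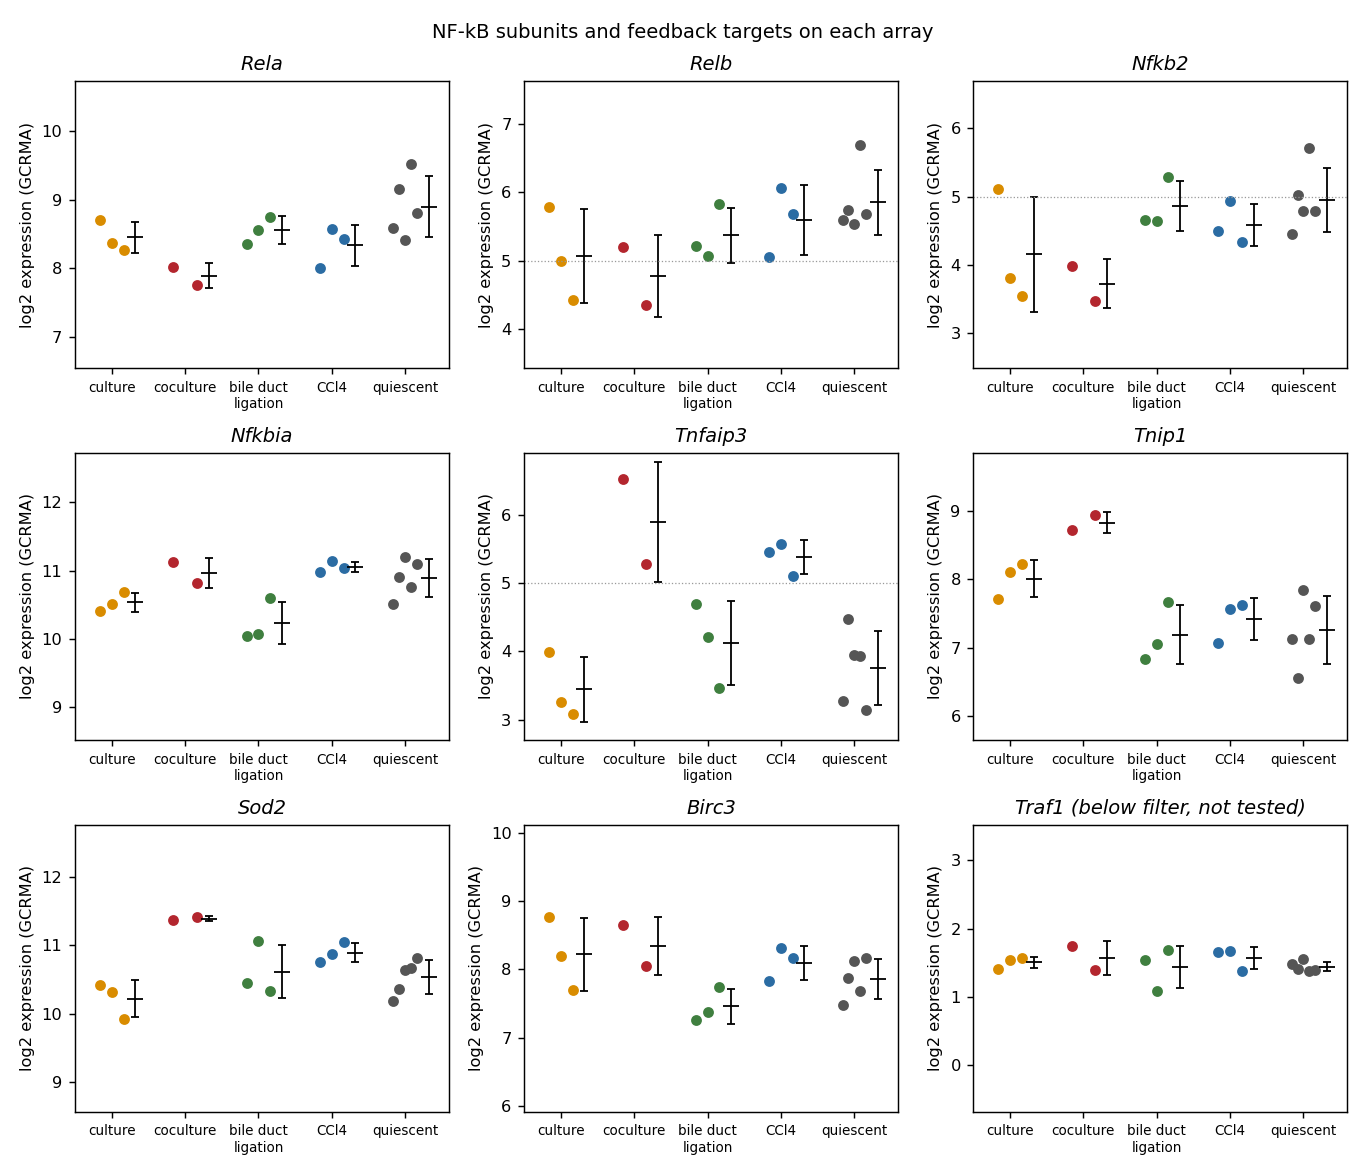
Log2 expression (GCRMA) of the 9 genes on the array, 1 point per array in order of replicate number, with the group mean and SD in black beside the points; every panel spans the same number of log2 units and the dotted line marks log2 5. Both cocultured preparations stand above all others for Tnip1 and Sod2 and above all quiescent ones for Tnfaip3, the mean of Rela is lowest there, and Traf1 stays between 1.09 and 1.75 on all 16 arrays.

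Among the subunits, Rela, which encodes the p65 activator, had values of 8.70, 8.37 and 8.27 in cultured cells, 8.02 and 7.76 in cocultured cells, 8.35, 8.56 and 8.75 after bile duct ligation, 8.00, 8.57 and 8.43 after CCl4, and 8.58, 9.16, 8.41, 9.52 and 8.80 in quiescent cells. Both cocultured preparations lay below all 5 quiescent ones, as for 24.8% of all tested genes (21.6% lay above). The coculture mean was lower than the quiescent mean by a log2 difference of -1.01 ± 0.25 (SE; limma adjusted p = 0.00606), about 0.497 of the quiescent level. The call was lost without coculture replicate 3 (-0.88, adjusted p = 0.0735). Both cocultured values also lay below all cultured ones, but the difference of -0.56 (95% interval -1.15 to 0.03) did not pass (limma adjusted p = 0.194). In the other groups the differences from quiescent cells, -0.45 in culture, -0.34 after bile duct ligation and -0.56 after CCl4, did not pass (limma adjusted p from 0.0824 to 0.324).

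Relb, the activating partner of p52 in the second branch, had values of 5.79, 4.99 and 4.43 in cultured cells, 5.20 and 4.36 in cocultured cells, 5.21, 5.07 and 5.83 after bile duct ligation, 5.05, 6.06 and 5.68 after CCl4, and 5.60, 5.74, 5.54, 6.70 and 5.68 in quiescent cells. Quiescent replicate 4 stood about 1 log2 unit above the other quiescent arrays, and both cocultured values lay below all quiescent ones. The coculture difference was -1.08 ± 0.40 (limma adjusted p = 0.0459), just inside the threshold. It was lost in 15 of 26 alternatives, 9 of which left out 1 array: quiescent replicate 1, 2, 4 or 5, culture replicate 2, coculture replicate 3, bile duct ligation replicate 1 or 2, or CCl4 replicate 3 (-1.14 to -0.65, adjusted p from 0.051 to 0.387). Without quiescent replicate 4 it was -0.86 (adjusted p = 0.0789).

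Nfkb2, which encodes p100, was close to the limit of detection: 5.11, 3.81 and 3.54 in cultured cells, 3.99 and 3.47 in cocultured cells, 4.66, 4.64 and 5.29 after bile duct ligation, 4.50, 4.93 and 4.33 after CCl4, and 4.45, 5.02, 4.80, 5.71 and 4.80 in quiescent cells. Only 4 of the 16 arrays reached log2 5, and culture replicate 1 stood apart from the other cultured cells. The coculture difference from quiescent cells was -1.23 ± 0.40 (limma adjusted p = 0.026). Setting values under log2 5 to 5 left -0.15 (adjusted p = 0.526), so that the call rests on values below that level. It was also lost without coculture replicate 2 (-1.48, adjusted p = 0.0547) or replicate 3 (-0.97, adjusted p = 0.202). In cultured cells Relb and Nfkb2 differed from quiescent cells by -0.79 and -0.80, which did not pass (limma adjusted p = 0.084 and 0.0791). Without culture replicate 1 the same differences were -1.14 and -1.28 (adjusted p = 0.0248 and 0.00793).

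Nfkbia, the gene for the inhibitor IkB alpha, was lowest after bile duct ligation. Its values were 10.42, 10.51 and 10.69 in cultured cells, 11.13 and 10.82 in cocultured cells, 10.05, 10.07 and 10.59 after bile duct ligation, 10.99, 11.13 and 11.04 after CCl4, and 10.51, 10.91, 11.20, 10.75 and 11.09 in quiescent cells. Bile duct ligation replicates 1 and 2 lay below every other array, and replicate 3 overlapped the quiescent range. The difference from quiescent cells was -0.66 ± 0.16 (limma adjusted p = 0.00902), a level of 0.634 times the quiescent one. It was lost without bile duct ligation replicate 1 (-0.56, adjusted p = 0.0638) or replicate 2 (-0.58, adjusted p = 0.0536). The hepatocyte and mesothelial lists and Lyz2 were higher in the same arrays, as given above, and their part in this difference was not tested.

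The bile duct ligation and CCl4 arrays did not overlap for Nfkbia. The difference of -0.82 ± 0.18 did not pass after adjustment (limma adjusted p = 0.0769, unadjusted p = 0.000295) in a comparison where 0.166% of all genes passed. Array weights, with -0.90, were the only alternative under which it passed (limma adjusted p = 0.00678).

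Tnfaip3, the ubiquitin-editing inhibitor A20, varied most among the 8 genes. Its values were 3.99, 3.26 and 3.09 in cultured cells, 6.52 and 5.27 in cocultured cells, 4.69, 4.2 and 3.47 after bile duct ligation, 5.46, 5.57 and 5.10 after CCl4, and 3.28, 4.47, 3.95, 3.93 and 3.15 in quiescent cells. All 5 values of at least log2 5 belonged to cocultured or CCl4 cells. All arrays of these groups lay above all quiescent ones (true of 21.6% of tested genes in coculture and 11.4% after CCl4). Since the gene passed the filter through these arrays, it had to be high there to be tested at all. The difference from quiescent cells was 2.14 ± 0.43 in coculture (limma adjusted p = 0.00136) and 1.62 ± 0.38 after CCl4 (adjusted p = 0.00668). After bile duct ligation it was 0.36 (95% interval -0.43 to 1.16, limma adjusted p = 0.554) and in culture alone -0.31 (-1.11 to 0.49, adjusted p = 0.531).

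With values under log2 5 set to 5, Tnfaip3 in CCl4 cells differed from quiescent cells by 0.38, which did not pass (limma adjusted p = 0.193), while the coculture difference was 0.90 and still passed. Folds from such low values depend on the background estimate. The highest values of the hepatocyte and mesothelial lists were also in CCl4 cells. Lyz2 was higher than in quiescent cells in both cocultured and CCl4 cells, as in the other 2 states. The macrophage marker Cd14, below the filter, averaged 4.42 in cocultured and 4.49 in CCl4 cells (3.02 to 6.06). It averaged 2.05 in cultured cells, 3.10 after bile duct ligation and 2.27 in quiescent cells. The part of these cell types in the Tnfaip3 level was not tested. The injury groups differed for Tnfaip3 by -1.26 ± 0.42 (bile duct ligation minus CCl4), which did not pass (limma adjusted p = 0.22, unadjusted p = 0.00895).

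Tnip1, which encodes the A20-binding protein ABIN-1, was higher in culture both with and without Kupffer cells. Its values were 7.71, 8.10 and 8.22 in cultured cells, 8.72 and 8.94 in cocultured cells, 6.84, 7.05 and 7.67 after bile duct ligation, 7.07, 7.56 and 7.62 after CCl4, and 7.13, 6.56, 7.84, 7.13 and 7.62 in quiescent cells. The cocultured preparations lay above all 14 other arrays. The difference from quiescent cells was 1.57 ± 0.30 in coculture (2.98-fold; limma adjusted p = 0.000953) and passed in all 27 alternatives. In culture alone it was 0.76 ± 0.26 (adjusted p = 0.0306), with overlap between the groups. That call was lost in 8 of 27 alternatives, among them leaving out quiescent replicate 1, 2 or 4 or culture replicate 2 or 3 (0.58 to 0.73, adjusted p from 0.0525 to 0.113). After bile duct ligation (-0.07) and CCl4 (0.16) the level was within 0.2 log2 units of quiescent cells.

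Sod2, the mitochondrial manganese superoxide dismutase and a classical NF-kB target, was abundant in every group. Its values were 10.42, 10.32 and 9.92 in cultured cells, 11.37 and 11.41 in cocultured cells, 10.44, 11.06 and 10.34 after bile duct ligation, 10.76, 10.87 and 11.04 after CCl4, and 10.19, 10.36, 10.64, 10.66 and 10.81 in quiescent cells. The 2 cocultured values were the highest of all 16. The coculture difference from quiescent cells was 0.86 ± 0.20 (1.81-fold; limma adjusted p = 0.00354), and it passed in all 27 alternatives. The differences after bile duct ligation (0.08, 95% interval -0.29 to 0.45) and CCl4 (0.36, -0.01 to 0.73) and in culture alone (-0.31, -0.68 to 0.06) did not pass.

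Birc3 encodes cIAP2, a ubiquitin ligase that restrains cell death. Its values were 8.77, 8.19 and 7.71 in cultured cells, 8.65 and 8.05 in cocultured cells, 7.26, 7.37 and 7.75 after bile duct ligation, 7.83, 8.31 and 8.16 after CCl4, and 7.47, 7.87, 8.12, 7.69 and 8.17 in quiescent cells. No group differed from quiescent cells beyond the spread, with differences of 0.36 in culture, 0.48 in coculture, -0.40 after bile duct ligation and 0.24 after CCl4 (limma adjusted p from 0.172 to 0.516). Traf1, an adaptor of TNF receptors, stayed at 1.09 to 1.75 on all 16 arrays with both of its probe sets, which is below the array median, and was not tested.

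**Figure D2:**
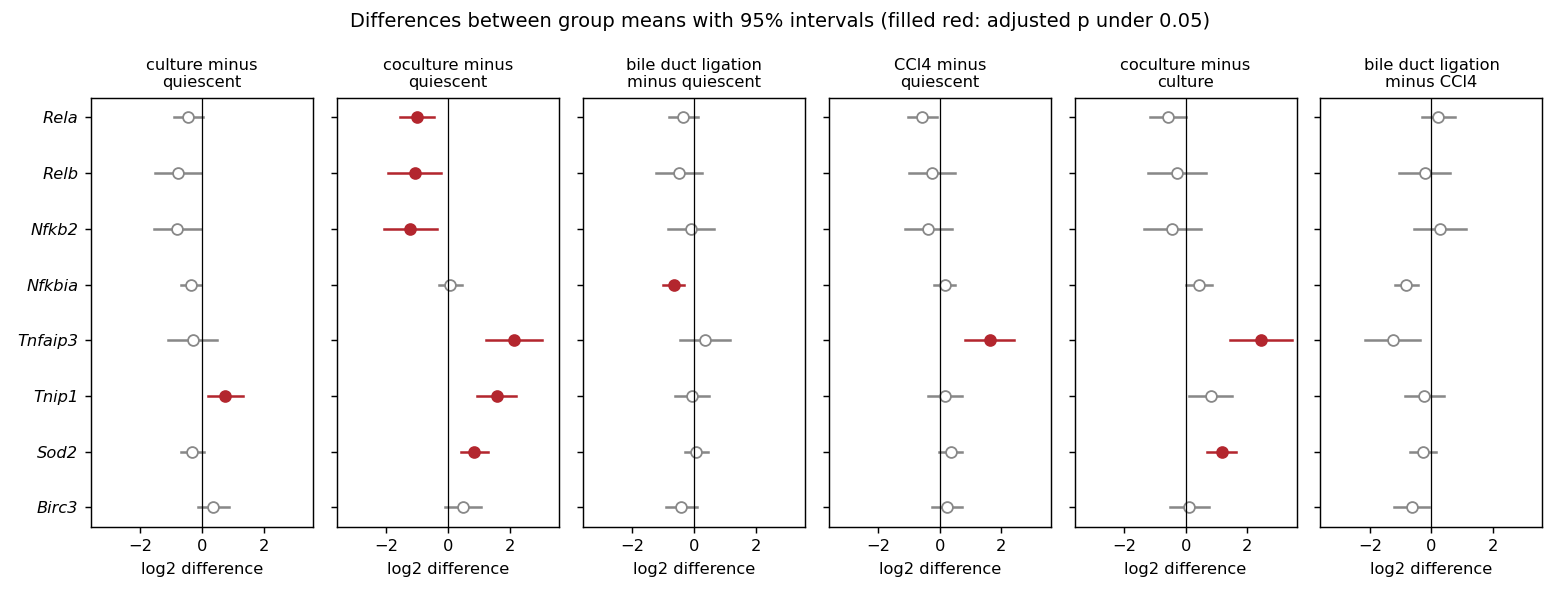
Log2 differences between group means (points) with 95% intervals (lines) from the limma fit for the 8 tested genes in 6 comparisons, the first-named group minus the second; filled red points have an adjusted p under 0.05. Coculture minus quiescent holds 6 filled points, 3 on each side of 0, and bile duct ligation minus CCl4 holds none.

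Coculture and culture differ by the Kupffer cells across the insert, and this comparison uses no quiescent array as its reference. Of the 8 genes 2 were called, both higher, where 15.4% of all tested genes were called, 8.37% higher and 7.03% lower. Tnfaip3 was higher by 2.45 ± 0.47 (limma adjusted p = 0.00277), or by 0.90 with values under log2 5 set to 5, since all cultured values lie under that level, and Sod2 by 1.17 ± 0.22 (2.25-fold; adjusted p = 0.0022), with no overlap between the groups. Sod2 passed in all 27 alternatives, and Tnfaip3 did not without coculture replicate 2 (1.83, adjusted p = 0.0703). Tnip1 (0.82, 95% interval 0.12 to 1.52) and Nfkbia (0.43, 0.02 to 0.85) lay above culture on both cocultured arrays but did not pass (limma adjusted p = 0.109 and 0.155). Both cocultured arrays lay above all cultured ones for 23.9% of all tested genes, and below them for 22.3%. Relb (-0.29), Nfkb2 (-0.43) and Birc3 (0.12) overlapped between the groups.

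Transcripts of other cell types also differed between these 2 groups. Cd68, a lysosomal protein abundant in macrophages, averaged 7.82 in cocultured and 3.74 in cultured cells, against 7.02 in quiescent cells, and Cd14, a coreceptor for lipopolysaccharide, averaged 4.42 in cocultured and 2.05 in cultured cells. Lyz2 averaged 5.49 in cocultured and 4.94 in cultured cells, which did not pass (0.54, adjusted p = 0.699). Csf1r, the macrophage colony-stimulating factor receptor and the highest of the 9 genes taken as lineage-defining, averaged 3.33 in cocultured and 3.28 in cultured cells. Krt19, a keratin of bile duct cells, averaged 5.60 in cocultured cells, against 2.33 in cultured and 1.58 in quiescent cells. The other measured bile duct cell markers, Krt7, Epcam and Cftr, averaged 1.47, 2.54 and 1.56 in cocultured cells, all under log2 3. The part of macrophage or bile duct cell RNA in the coculture values was not tested.

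The remaining pairs set one activated state against another. Coculture minus bile duct ligation called 5 of the 8 genes higher and none lower (limma; 29.6% of all genes called, 14.4% higher and 15.2% lower). These were Tnfaip3 (1.78, adjusted p = 0.0108), Tnip1 (1.64, 0.00218), Birc3 (0.89, 0.0338), Sod2 (0.78, 0.0147) and Nfkbia (0.73, 0.0116), and each had both cocultured values above all 3 others. Such separation is common, with 28.5% of all tested genes lying above and 28.8% below. All but Tnip1 lost the call without coculture replicate 2, with values of 1.15 for Tnfaip3, 0.59 for Birc3, 0.80 for Sod2 and 0.58 for Nfkbia. Sod2 also lost it without coculture replicate 3 (0.75), bile duct ligation replicate 1 (0.69) or replicate 3 (0.64), and Birc3 without bile duct ligation replicate 1 (0.79) or replicate 2 (0.84). Nfkb2 (-1.13) and Rela (-0.67) lay below on both cocultured arrays without passing (limma adjusted p = 0.0647 and 0.0817). Coculture minus CCl4 called Tnip1 alone (1.41 ± 0.33, adjusted p = 0.00728; 21.9% of all genes called, 11.2% higher and 10.8% lower), which was lost without coculture replicate 3 (1.30, adjusted p = 0.074).

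Culture minus CCl4 called 3 genes, all lower in culture (limma; 43% of all genes called, 21.1% higher and 21.9% lower). Tnfaip3 differed by -1.93 (adjusted p = 0.00187), Sod2 by -0.67 (adjusted p = 0.0114) and Nfkbia by -0.52 (adjusted p = 0.027), and no cultured array reached a CCl4 array. The same held for 28.5% of all tested genes, while 27.5% lay above. With values under log2 5 set to 5, the Tnfaip3 difference was -0.38 and did not pass (adjusted p = 0.179), and with the Nfkbia probe set not shared between transcripts, that of Nfkbia was -0.25 (adjusted p = 0.323). Sod2 lost the call without culture replicate 3 (-0.52), and Nfkbia without culture replicate 1 (-0.46) or 2 (-0.50) or CCl4 replicate 2 (-0.48) or 3 (-0.52). Culture minus bile duct ligation called Tnip1 (0.82, adjusted p = 0.0321) and Birc3 (0.76, adjusted p = 0.0276), both higher in culture, where 45.6% of all genes were called, 21.9% higher and 23.6% lower. Tnip1 lost the call without culture replicate 2 or 3 or bile duct ligation replicate 1 or 2 (0.65 to 0.78), and Birc3 without culture replicate 1 or 2 or bile duct ligation replicate 1 or 2 (0.49 to 0.78). Bile duct ligation minus CCl4 called 0 of the 8 with limma. Unadjusted limma p was under 0.05 for Nfkbia, Tnfaip3 and Birc3 (-0.64, 0.0279), whose bile duct ligation values all lay below the CCl4 values. So did those of 11.8% of all tested genes, while 13.5% lay above.

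Ordered by group mean, Tnfaip3 and Sod2 ran coculture, CCl4, bile duct ligation, quiescent, culture, and Tnip1 ran coculture, culture, CCl4, quiescent, bile duct ligation. Birc3 began coculture, culture, CCl4 and ended with bile duct ligation. Nfkbia ran CCl4, coculture, quiescent, culture, bile duct ligation. All 3 subunits had quiescent cells first and cocultured cells last. For each of the 8 genes, no neighbouring pair of groups in its order differed beyond the spread (lowest limma adjusted p 0.0787), so only groups further apart in an order were separated by the tests.

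**Figure D3:**
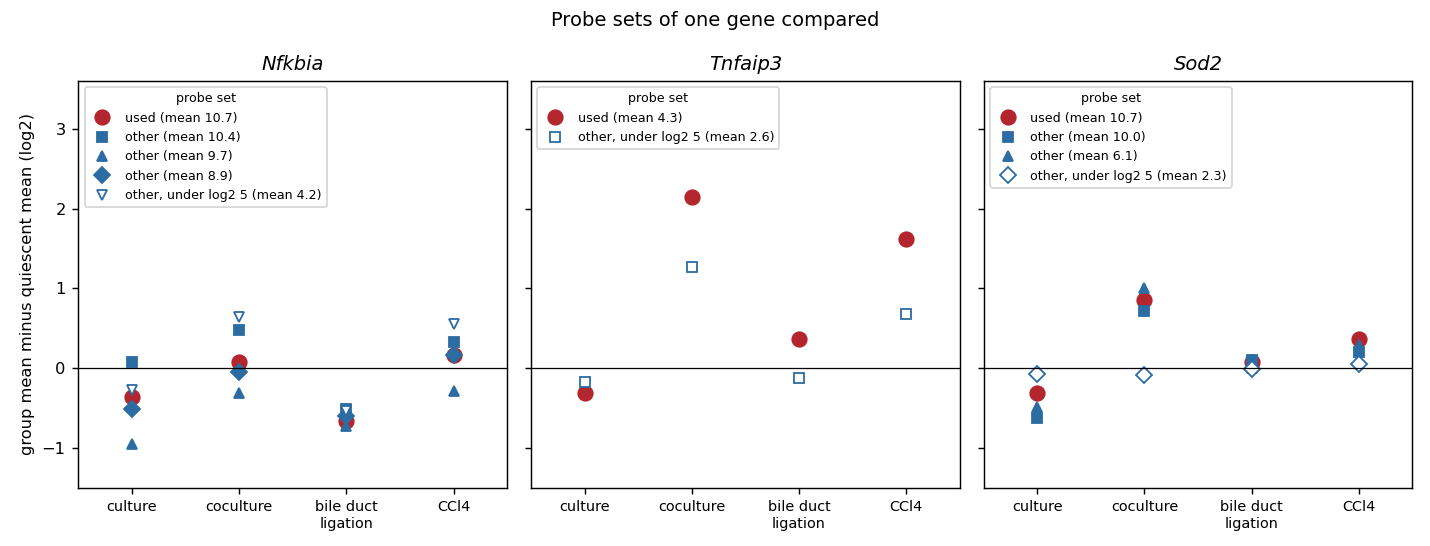
Group mean minus quiescent mean (log2) for every probe set of Nfkbia, Tnfaip3 and Sod2; red circles are the probe sets used, open symbols are probe sets with fewer than 2 arrays at log2 5, and legends give the mean over 16 arrays. All 5 Nfkbia probe sets lie below 0 after bile duct ligation, and 3 of the 4 Sod2 probe sets lie above 0 in coculture.

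Other probe sets of the same genes offered a check within these arrays. The 9 genes had 20 probe sets. For Nfkbia all 5 were lower after bile duct ligation (-0.73 to -0.52), but in culture they ranged from -0.95 to 0.08, so that the culture value depends on the probe set. With the best Nfkbia probe set not shared between transcripts (the class without _s_at or _x_at), the bile duct ligation difference was -0.52 and did not pass (limma adjusted p = 0.0572). The second Tnfaip3 probe set stayed under log2 5 on every array, and its means differed from quiescent cells by 1.27 in coculture and 0.68 after CCl4. The 2 other expressed Sod2 probe sets differed by 1.34 and 1.5 between coculture and culture, and the fourth, with group means of 2.28 to 2.41, by -0.01. The second Nfkb2 probe set was lower in coculture by -0.97 and in culture by -0.78.

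The patterns most like each gene's were taken over all 7823 genes by the root mean square (RMS) difference over 16 arrays, after centring each gene on its own mean. Nfkb2 and Relb were each other's nearest gene (RMS 0.271 log2 units, where their own SDs were 0.622 and 0.594). Rela was nearest to Med13 (0.154), Fbrs (0.178) and Ankrd11 (0.179). Tnfaip3 had no close match, with Ripk3 (0.556), Gramd1b (0.579) and Uaca (0.595) nearest, against its own SD of 1.02. For Sod2 they were Pgk1 (0.222), Tsr3 (0.247) and Coa7 (0.257), for Tnip1 Mospd1 (0.290), Wdyhv1 (0.304) and Rab9 (0.327), for Nfkbia Agk (0.237), Krr1 (0.238) and Ncoa3 (0.255), and for Birc3 Enpp4 (0.257), Tbk1 (0.261) and Ifi35 (0.263). These are descriptions with no test.

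Upstream of NF-kB, most measured ligands were nearly silent in the stellate cells, while Il33 and Tnfsf13b were expressed. Of 12 measured ligands, 9 stayed under log2 3 on every array, among them Tnf (group means 1.87 to 2.12) and Il1b (1.62 to 1.94). Il1a, interleukin-1 alpha, was at 4.59 in 1 cocultured preparation and 1.79 in the other, and averaged 1.02 in quiescent cells. The 2 tested ligands moved apart. Il33, an alarmin, averaged 3.45 ± 0.93 in cultured and 6.0 ± 0.97 in cocultured cells, against 7.67 ± 1.33 in quiescent cells (SD), and was lower in culture by -4.22 ± 0.64 (SE; limma adjusted p = 0.000121). Tnfsf13b, the B-cell factor BAFF, averaged 5.19 ± 0.23 in cultured and 6.20 ± 1.79 in cocultured cells, against 3.71 ± 0.45 in quiescent cells, and was higher in both (adjusted p = 0.0127 and 0.00122).

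Receptors differed in both directions, and 12 of the 19 on the array were tested. Coculture had 4 higher and 5 lower than quiescent cells (17.8% and 20.9% of all genes), with a median difference of -0.14, against -0.04 over all tested genes. Culture had 2 higher and 4 lower (18.5% and 23.5%), bile duct ligation 1 higher and 4 lower (8.03% and 8.83%), and CCl4 1 higher and 5 lower (9.51% and 12.5%). Tnfrsf1a, the main TNF receptor, was lower in all 4 states, at 8.35 ± 0.35, 8.33 ± 0.14, 8.49 ± 0.51 and 8.37 ± 0.39 in cultured, cocultured, bile duct ligation and CCl4 cells, against 9.42 ± 0.21 in quiescent cells (SD; limma adjusted p from 0.00157 to 0.00975, with the quiescent arrays shared). Il1r1, the signalling receptor of interleukin-1, was also lower in all 4, most in coculture at 7.51 ± 1.04, against 9.63 ± 0.25 in quiescent cells (-2.13 ± 0.34, SE; adjusted p = 0.000253). Its coreceptor Il1rap was higher in coculture (2.1 ± 0.34), after bile duct ligation (1.83 ± 0.29) and after CCl4 (1.26 ± 0.29). Cd40, a receptor of the second branch, averaged 5.97 ± 0.99 in cocultured and 3.86 ± 0.52 in cultured cells, against 3.78 ± 0.43 in quiescent cells (coculture minus culture 2.12 ± 0.41; adjusted p = 0.00308). Ly96 (MD-2), the lipopolysaccharide-binding partner of TLR4, was higher in coculture than in culture by 0.78 ± 0.23 (adjusted p = 0.0291), and after bile duct ligation Ly96 and Tlr4 were lower than in quiescent cells by -0.74 and -1.17 (adjusted p = 0.0108 and 0.00745).

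The genes between receptor and NF-kB are given next. Of 11 tested IkB kinase and upstream kinase genes, 3 were lower in coculture and none higher, near the share among all genes (20.9% lower), and 1 of the 3 was Ikbkb, the catalytic kinase that marks IkB for degradation (-0.75 ± 0.16; limma adjusted p = 0.00215). Of the 11, Map3k8, a kinase bound by p105, was lower after bile duct ligation (-1.79 ± 0.38, adjusted p = 0.0041), and Ikbkb was lower after CCl4 (-0.44 ± 0.14, adjusted p = 0.0342). Of 12 tested adaptors and ubiquitin ligases, coculture had 1 higher and 4 lower (17.8% and 20.9% of all genes), among them Rnf31, the catalytic subunit of the linear ubiquitin ligase (-0.92 ± 0.24, adjusted p = 0.00699). Of 11 tested deubiquitinases and feedback inhibitors, culture had 5 higher and 1 lower (18.5% and 23.5% of all genes) and coculture 3 higher (17.8%), Tnfaip3 and Tnip1 being joined by Cyld, a deubiquitinase that limits NF-kB (0.73 ± 0.17 in culture, adjusted p = 0.00333; 0.61 ± 0.20 in coculture, adjusted p = 0.0229). Of 5 tested IkB genes, Nfkbie, IkB epsilon, was higher in culture (1.15 ± 0.31, adjusted p = 0.00728), and lower there was Nfkbiz, a nuclear IkB that coactivates secondary targets (-1.42 ± 0.34, adjusted p = 0.00381). Nfkbiz averaged 9.34 ± 0.45 in cocultured cells, against 7.23 ± 0.44 in cultured cells (coculture minus culture 2.11 ± 0.43, adjusted p = 0.00374).

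**Figure D4:**
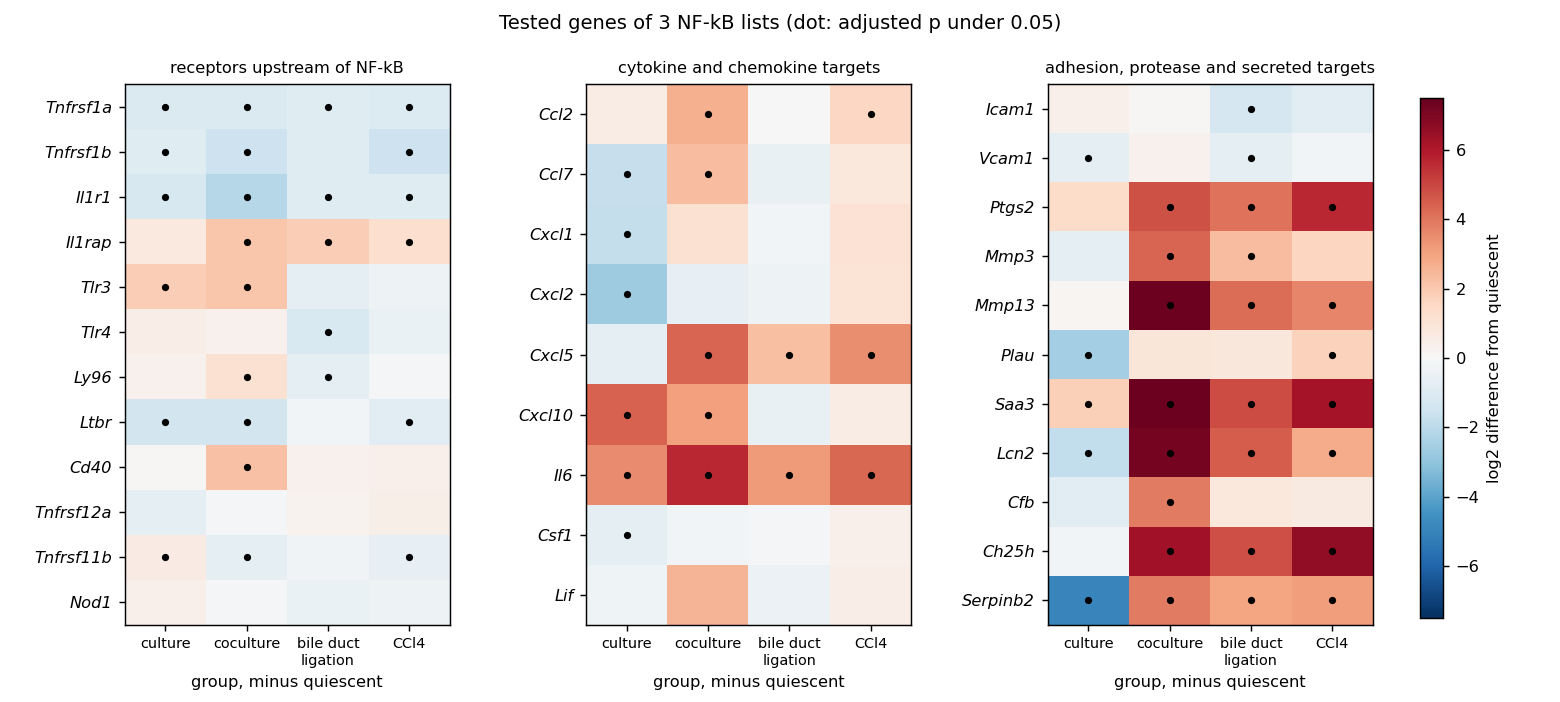
Log2 difference from quiescent cells (colour) for the tested receptors, cytokine and chemokine targets, and adhesion, protease and secreted targets of NF-kB, with 1 column per state; dots mark an adjusted p under 0.05 (limma). Il6 is dotted in all 4 columns, and Lcn2 and Serpinb2 are blue in culture and red in the other 3.

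Among known NF-kB targets outside the 10 genes, some differed between groups by several log2 units. Genes low in one group entered these lists through the groups where they are high, so the filter fixes part of each count of higher genes, and where a mean lies under log2 5 the size of a difference depends on the background estimate. Of 9 tested cytokine and chemokine targets, 5 were higher in coculture than in quiescent cells and none lower (17.8% and 20.9% of all genes). Bile duct ligation had 2 higher (8.03%), CCl4 3 higher (9.51%), and culture 2 higher and 4 lower (18.5% and 23.5%). Il6 averaged 6.53 ± 3.30 in cultured, 8.66 ± 0.53 in cocultured, 6.21 ± 0.92 in bile duct ligation and 7.33 ± 0.68 in CCl4 cells, against 3.01 ± 1.26 in quiescent cells (SD; limma adjusted p from 0.00201 to 0.0477). The neutrophil chemokine Cxcl5 averaged 7.23 ± 2.48 in cocultured and 2.12 ± 0.33 in cultured cells, which is near the array medians (adjusted p = 0.00118). The monocyte chemokine Ccl2 averaged 10.59 ± 0.67 in cocultured and 8.47 ± 0.83 in cultured cells (difference 2.12 ± 0.56, adjusted p = 0.018). Cxcl10, a T-cell chemokine also driven by interferon, was higher in culture by 4.42 ± 0.88 (adjusted p = 0.00101).

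Of 11 tested adhesion, protease and secreted targets, coculture had 8 higher than quiescent cells and none lower (17.8% and 20.9% of all genes), and culture 1 higher and 4 lower (18.5% and 23.5%). Bile duct ligation had 7 higher and 2 lower (8.03% and 8.83%), and CCl4 7 higher (9.51%). Lcn2, the iron-binding lipocalin 2, averaged 2.99 ± 0.91 in cultured, 12.03 ± 0.28 in cocultured, 9.38 ± 0.25 in bile duct ligation and 7.61 ± 0.98 in CCl4 cells, against 4.83 ± 0.99 in quiescent cells. Saa3, an acute-phase serum amyloid A, averaged 10.18 ± 1.37 in cocultured cells, 7.76 ± 1.31 after bile duct ligation and 9.08 ± 0.95 after CCl4, against 2.84 ± 0.32 in quiescent cells. Ch25h, cholesterol 25-hydroxylase, averaged 9.25 ± 0.05, 7.76 ± 0.35 and 9.56 ± 0.47 in cocultured, bile duct ligation and CCl4 cells, against 2.92 ± 1.95 in quiescent cells, all 3 passing (limma adjusted p from 2.65e-05 to 0.000442). Coculture minus culture called 9 of the 11 higher and none lower (8.37% and 7.03% of all genes), among them Lcn2 and Serpinb2, plasminogen activator inhibitor 2, which averaged 10.77 ± 0.59 in coculture, against 1.94 ± 0.63, a background level, in culture (adjusted p = 2.27e-05). After bile duct ligation the 2 lower genes were Icam1 (-1.26) and Vcam1 (-0.72), leukocyte adhesion molecules named after their values were seen. Hepatocytes make several acute-phase proteins, and hepatocyte and mesothelial transcripts were higher in both injury groups. Their part in the Lcn2 and Saa3 values was not tested. In cocultured cells albumin was at 1.75 to 2.17.

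Of 16 tested survival and signalling targets, which include Nfkbia, Sod2, Tnfaip3 and Birc3, coculture had 3 higher and 3 lower than quiescent cells, near the shares among all genes (17.8% and 20.9%). Culture had 1 higher and 5 lower (18.5% and 23.5%), bile duct ligation 4 lower (8.83%), and CCl4 3 higher and 1 lower (9.51% and 12.5%). Fth1, the iron-storing ferritin heavy chain, was lower in all 4 states (-0.74 in coculture to -0.30 after bile duct ligation; limma adjusted p from 6.68e-06 to 0.00739). Tnfaip2 averaged 6.36 ± 0.78 in cultured and 9.77 ± 0.30 in cocultured cells, against 8.77 ± 0.69 in quiescent cells, and was higher in coculture than in culture by 3.41 ± 0.47 (adjusted p = 0.000217).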

How the data were processed

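The log2 expression values were made by the authors from 1 oligonucleotide array per preparation and deposited as a table of 45101 probe sets, with 0 missing values; the submitters' processing notes name GCRMA, whose version is not given in the sources used here. Of the probe sets, 34945 carried 1 gene symbol and were used, and 64 controls, 932 with several symbols and 9160 with none were left out. An Entrez match to the gene names table existed for 34741. A gene's brightest probe set by mean stood for it, and genes with 2 or more arrays at log2 5 or above were tested. No detection calls were used, and the number of arrays limits the precision.

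A linear model of the 5 groups was fitted to all genes with limma 3.58.1 in R 4.3.3 (lmFit, then eBayes with a trend), tested on simulated data first. A gene was called at a two-sided adjusted p under 0.05 (Benjamini-Hochberg over 7823 genes) in each of 10 comparisons. Errors are the fit's standard errors, and group values are means with SD. All 10 genes are described; from each pathway list, counts and up to 4 called genes with the smallest adjusted p per comparison were named, and ligands and receptors also with their levels. The members, lists and tests were chosen with earlier results of these data known. Correlations between arrays were 0.929 to 0.983 within groups, and no 2 arrays shared more than 409 identical values. Promoter windows and gene positions come from RefSeq, GRCm38.p6. Alternatives covered probe sets, filters, scaling, variance trend, arrays in the fit, array weights, the replicate number as a block, and each array left out.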

Additional observations from a re-analysis of the deposited data

Results flagged for a closer look

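Relb in quiescent replicate 4 stood at 6.70, while the other 4 quiescent arrays lay between 5.54 and 5.74; its gap to the next array was 0.826 of the group's range, above the critical value of 0.71 for 5 samples (Dixon). Chance gives about 1 such group in 20, and 9 genes were examined. The same array was also the highest quiescent one for Nfkb2 (5.71) and Rela (9.52), and it had the lowest array weight, 0.331. Tnfaip3 and Sod2 differed between coculture and culture, which share serum, plastic and duration, by 2.45 and 1.17 log2 units (limma adjusted p = 0.00277 and 0.0022). Tnfaip3 passed the filter only through cocultured and CCl4 arrays, so the filter partly fixes this outcome for Tnfaip3. Its difference was 0.90 with values under log2 5 set to 5, and 1.83 without coculture replicate 2.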

How the results depend on the processing

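Over 2110 results for single genes under alternatives, 1976 kept direction and side of the threshold, 67 lost the call, 27 gained it, 40 changed sign without a call, and 0 called values reversed. With the mean of all probe sets (Tnfaip3 and Nfkb2 then fell below the filter), the genes of the 10 called were 0 after CCl4, 1 in coculture minus culture, 3 in coculture minus bile duct ligation and 1 in culture minus bile duct ligation; all genes called between the injuries were 20, against 13. With probe sets outside the _s_at and _x_at classes preferred, 0 were called after bile duct ligation. Without a filter, 0 were called in culture and 1 in culture minus bile duct ligation, and 43 of all genes between the injuries. A filter at log2 7 removed Relb, Nfkb2 and Tnfaip3. All 50 results of the genes still tested kept direction and side of the threshold. Coculture then had 3, CCl4 0, coculture minus culture 1, and 4 of all genes passed between the injuries. With values under log2 5 set to 5, CCl4 had 0, and 38 of all genes passed between the injuries. Fitting only the 2 groups' arrays gave 0 in culture, 2 in coculture minus CCl4, 1 in culture minus bile duct ligation, and 601 of all genes in coculture minus culture (1205 otherwise) and 40 between the injuries. Array weights gave 4 in culture, 5 in culture minus bile duct ligation, 6 in culture minus CCl4, and 1 gene of the 10 and 173 of all genes between the injuries. Leaving out both arrays of lowest weight (quiescent replicate 4, 0.331, and culture replicate 3, 0.437), chosen after seeing the data, gave 0 in culture, 1 in culture minus bile duct ligation and 24 of all genes between the injuries. Apart from genes that fell below a filter, the cause of these shifts was not tested.

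With each array left out in turn, calls among the 10 genes and among all genes ran from 0 to 3 and 2580 to 3307 (culture), 3 to 6 and 1862 to 3130 (coculture), 0 to 1 and 784 to 1433 (bile duct ligation) and 1 to 2 and 878 to 1890 (CCl4) against quiescent cells. They ran from 1 to 2 and 446 to 1400 in coculture minus culture, 0 to 0 and 4 to 20 in bile duct ligation minus CCl4, 1 to 7 and 1196 to 2550 in coculture minus bile duct ligation, 0 to 1 and 699 to 1940 in coculture minus CCl4, 0 to 3 and 2926 to 3769 in culture minus bile duct ligation, and 2 to 3 and 2703 to 3576 in culture minus CCl4. The arrays do not settle whether the replicate numbers pair the samples. Deviations of same-numbered arrays correlated at -0.26 to 0.54 (7 of 26 pairs over 0.1), and of others at -0.54 to 0.45. Between culture and coculture, same-numbered arrays correlated at 0.31 (replicate 2) and 0.54 (replicate 3), and others at -0.54 to 0.45. The deviations of the 2 cocultured arrays mirror each other, so these values are not independent. The main fit left pairing out. With the replicate block, coculture minus quiescent had 4 of the 10 genes called and 2532 of all genes, without Nfkb2 (-0.98, adjusted p = 0.117, limma) and Relb (-0.85, adjusted p = 0.153); coculture minus bile duct ligation kept 5, Birc3 (0.85, adjusted p = 0.0674) being lost and Rela (-0.72, adjusted p = 0.0404) gained. With 2 cocultured preparations, statements on coculture are the least precise, and probe sets under log2 5 (Traf1, most Nfkb2 and Tnfaip3 values) lie where the background estimate limits a fold.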
